A study of Sus scrofa with 20 samples.

Results

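Swine MHC class I and its peptide loading were followed through 21 probe sets of 9 genes. A probe set was taken where the platform annotation gave it 1 gene symbol, and that symbol began with SLA- and a digit or was TAP1, TAP2, TAPBP, B2M, PSMB8 or PSMB9. The rule used names only and no measured value, but the members were chosen with earlier results of these data known. The array held 23999 probe sets other than controls, of which 10069 carried 1 symbol, for 6765 genes. B2M had 9 of the 21 probe sets, TAP1 had 3, SLA-6 and SLA-8 had 2 each, and SLA-2, SLA-3, SLA-7, TAPBP and PSMB8 had 1 each. TAP2 and PSMB9 had 0 probe sets with 1 symbol and are not analysed here.

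MHC class I molecules show fragments of a cell's own proteins to CD8 T cells and are carried by nearly all nucleated cells. In the pig the heavy chains are encoded by the SLA (swine leukocyte antigen) genes, with SLA-2 and SLA-3 among the classical genes and SLA-6, SLA-7 and SLA-8 counted as non-classical. B2M encodes the light chain, beta-2-microglobulin. Proteasomes cut proteins into peptides, and PSMB8 encodes a catalytic subunit that replaces its constitutive counterpart in the immunoproteasome. TAP1 forms with TAP2 the transporter that moves peptides into the endoplasmic reticulum, where tapasin, the product of TAPBP, holds class I molecules at the transporter. Interferons are well known to induce these genes. In the pig gene table of the assembly Sscrofa11.1, SLA-8, SLA-7 and SLA-6 lie next to each other in that order, as do TAP2, PSMB8, TAP1 and PSMB9.

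The ileal mucosa of crossbred Landrace × Large white × Duroc piglets was measured on 20 GeneChip Porcine Genome arrays, 1 array per piglet. Suckling piglets were killed at 14, 21, 28 or 35 days of age (S14D, S21D, S28D and S35D, with 3, 4, 4 and 3 arrays). Piglets weaned at 21 days of age onto a commercial weaning diet were killed at 28 or 35 days, that is 7 or 14 days after weaning (21W28D and 21W35D, with 3 arrays each). The piglets came from fewer sows than there were piglets, and the litter of each was not given. Whole mucosa holds epithelium, leukocytes and other cells, so that fewer cells of a type and less RNA per cell cannot be told apart.

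Values are log2 intensities after gcRMA, a background correction and normalization that puts undetected probe sets near 2.08, the lowest value on the arrays. Array medians lay between 5.07 and 5.34, and arrays correlated with each other at 0.943 to 0.997. The mean of 21W35D was closer than that of S28D to each of the 3 arrays carrying the label S35D. Of the 3 arrays carrying the label 21W28D, 2 were closer to S28D than to 21W35D, and 2 of the 3 21W35D arrays were closer to S28D than to S35D. Arrays labelled S35D share their age with 21W35D, and arrays labelled 21W28D share theirs with S28D. Correct labels with an effect of age could therefore give the closeness of these arrays too. Their closeness cannot tell an exchange of the labels S35D and 21W28D from shared age. Which labels are right was not tested, and these labels are called doubted below in that sense only. The groups are named as labelled. Counts of called members that move when both labels are exchanged, or when the arrays carrying them are left out, are given that way too. An exchange turns each comparison of S35D or 21W28D into the same comparison of the other. Of 12 epithelial markers 11 were measured, and their lowest value in any array was 4.19 for CLDN3 and at least 7.95 for the other 10. Among markers of T and natural killer (NK) cells, 9 of 13 were measured, with CD4 and PRF1 at the floor in every array.

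Of the 21 probe sets, 3 stayed within 0.1 of the floor in every array, the dimmer one of SLA-6 and the 2 dimmer ones of TAP1. The dimmest B2M probe set reached 4 in 1 array, S14D replicate 3 at 4.06. The other 17 were above 5 in all 20 arrays. Of all 23999 probe sets, 13718 reached 4 in at least 3 arrays, as did 17 of the 21 members. The shares over all probe sets given below therefore include more undetected ones than the members do. Several members are of the same gene, so that counts of members are not counts of independent genes. For each gene the probe set with the highest mean over the arrays is described first. Levels of different genes are not compared, because brightness also depends on the probes. Several SLA genes are closely related in sequence. The SLA-2 probe set and the brighter one of SLA-8 carry suffixes that Affymetrix uses for probes that can also match other transcripts. Signals of SLA genes may therefore be partly shared.

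TAP1, the peptide transporter subunit, ran from 9.71 to 13.19 on the log2 scale over the 20 arrays. The level of TAP1 was 9.71, 10.03 and 9.80 in the S14D arrays, 11.04, 11.45, 11.37 and 11.37 in S21D, and 12.48, 11.15, 12.72 and 11.84 in S28D. It was 12.68, 12.59 and 12.88 in the arrays labelled S35D, 12.10, 11.98 and 12.49 in those labelled 21W28D, and 12.65, 12.63 and 13.19 in 21W35D. All S14D arrays lay below all others. S28D spread the widest, with replicate 2 among the S21D arrays and replicate 3 within the range of the day 35 groups. In rising order the groups were S14D, S21D, S28D, 21W28D, S35D and 21W35D. The steps from S28D to 21W28D and from S35D to 21W35D were smaller than the larger SD of the neighbours.

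SLA-8, a non-classical heavy chain, had 2 probe sets that followed each other at r = 0.99 over the 20 arrays. The brighter one read 8.46, 8.29 and 8.41 in S14D, 9.76, 9.87, 10.10 and 10.08 in S21D, and 10.46, 9.82, 10.15 and 10.45 in S28D. SLA-8 read 10.81, 10.66 and 10.61 in the arrays labelled S35D, 10.87, 10.49 and 10.59 in those labelled 21W28D, and 10.85, 10.61 and 11.15 in 21W35D. The S14D arrays again lay below all others, and the later 3 groups lay above every S21D and S28D array. Their own order was within their spread. The second probe set ran from 8.13 in S14D replicate 2 to 10.80 in 21W35D replicate 3.

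SLA-6, another non-classical heavy chain, had its S14D arrays lowest as well, at 8.13, 7.71 and 7.41. SLA-6 was 9.29, 9.41, 10.00 and 9.58 in S21D, 9.65, 9.55, 9.84 and 10.26 in S28D, and 10.08, 9.63 and 10.02 in the arrays labelled S35D. The weaned piglets read 9.77, 10.57 and 10.59 in the arrays labelled 21W28D and 10.87, 9.03 and 11.32 in 21W35D. The 21W35D group therefore held both the highest values of SLA-6 and, in replicate 2, the lowest value outside S14D, and its SD of 1.21 was the largest of the 6 groups. No step in the order of the groups after S14D exceeded the SD of its neighbours.

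PSMB8, the immunoproteasome subunit, had the same gap after day 14. It read 8.73, 8.10 and 7.40 in S14D, 9.57, 9.32, 9.75 and 9.52 in S21D, and 10.06, 9.41, 9.92 and 9.90 in S28D. It read 10.14, 9.86 and 9.91 in the arrays labelled S35D, 10.05, 10.09 and 10.12 in those labelled 21W28D, and 9.91, 10.03 and 10.12 in 21W35D. The 3 later groups were level with each other, with means of 9.97, 10.08 and 10.02.

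SLA-2, a classical heavy chain, changed within a narrower range and more evenly, from 13.13 in S28D replicate 2 to 14.38 in 21W35D replicate 2. It read 13.15, 13.32 and 13.36 in S14D, 13.53, 13.47, 13.38 and 13.52 in S21D, and 13.82, 13.13, 13.56 and 13.75 in S28D. SLA-2 was 13.79, 13.92 and 13.95 in the arrays labelled S35D, 13.98, 13.76 and 13.82 in those labelled 21W28D, and 14.06, 14.38 and 14.25 in 21W35D. The 21W35D arrays lay above all the others, and their step above S35D exceeded the SD of both groups. The steps between S21D, S28D, 21W28D and S35D did not.

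SLA-3, the other classical heavy chain measured by a probe set of its own, was 12.40, 12.54 and 12.69 in S14D, 13.36, 12.83, 12.70 and 12.90 in S21D, and 13.18, 13.07, 13.28 and 12.86 in S28D. SLA-3 was 14.09, 13.56 and 13.60 in the arrays labelled S35D, 13.90, 12.99 and 13.14 in those labelled 21W28D, and 13.51, 14.18 and 13.69 in 21W35D. Replicate 1 of the arrays labelled 21W28D stood with the day 35 groups, and the other 2 stood with S28D. SLA-7, non-classical like SLA-8 beside it, followed SLA-3 at r = 0.84 over the 20 arrays, or 0.71 with the group means taken out. SLA-7 was 7.21, 7.53 and 7.82 in S14D, 7.62, 7.83, 7.65 and 7.90 in S21D, and 8.08, 7.77, 8.51 and 7.42 in S28D. It was 9.36, 8.39 and 8.60 in the arrays labelled S35D, 8.21, 7.10 and 8.05 in those labelled 21W28D, and 8.15, 8.93 and 8.68 in 21W35D. For SLA-7, S14D overlapped S21D, and the highest groups were S35D and 21W35D.

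TAPBP, which encodes tapasin, ran from 9.61 in S28D replicate 2 to 10.85 in 21W35D replicate 2. It read 10.12, 9.89 and 9.80 in S14D, 10.00, 9.73, 10.19 and 10.32 in S21D, and 10.15, 9.61, 10.50 and 10.73 in S28D. It read 10.38, 10.27 and 10.42 in the arrays labelled S35D, 10.50, 10.35 and 10.39 in those labelled 21W28D, and 10.40, 10.85 and 10.84 in 21W35D. S28D alone covered most of that range. Only the step from 21W28D up to 21W35D exceeded the SD of both neighbours.

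B2M, the light chain, varied least by its brightest probe set, with a range of 0.69 log2 units over the 20 arrays. It read 14.82, 15.17 and 15.26 in S14D, 15.18, 15.25, 15.03 and 15.22 in S21D, and 15.35, 14.96, 15.12 and 15.13 in S28D. It read 15.39, 15.41 and 15.43 in the arrays labelled S35D, 15.30, 15.26 and 15.25 in those labelled 21W28D, and 15.39, 15.51 and 15.43 in 21W35D. Both day 35 groups lay above all other arrays. The highest value of this probe set was 15.51, and the highest on any array was 16.41. Whether the top of the scale limits its range was not tested.

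**Figure D1:**
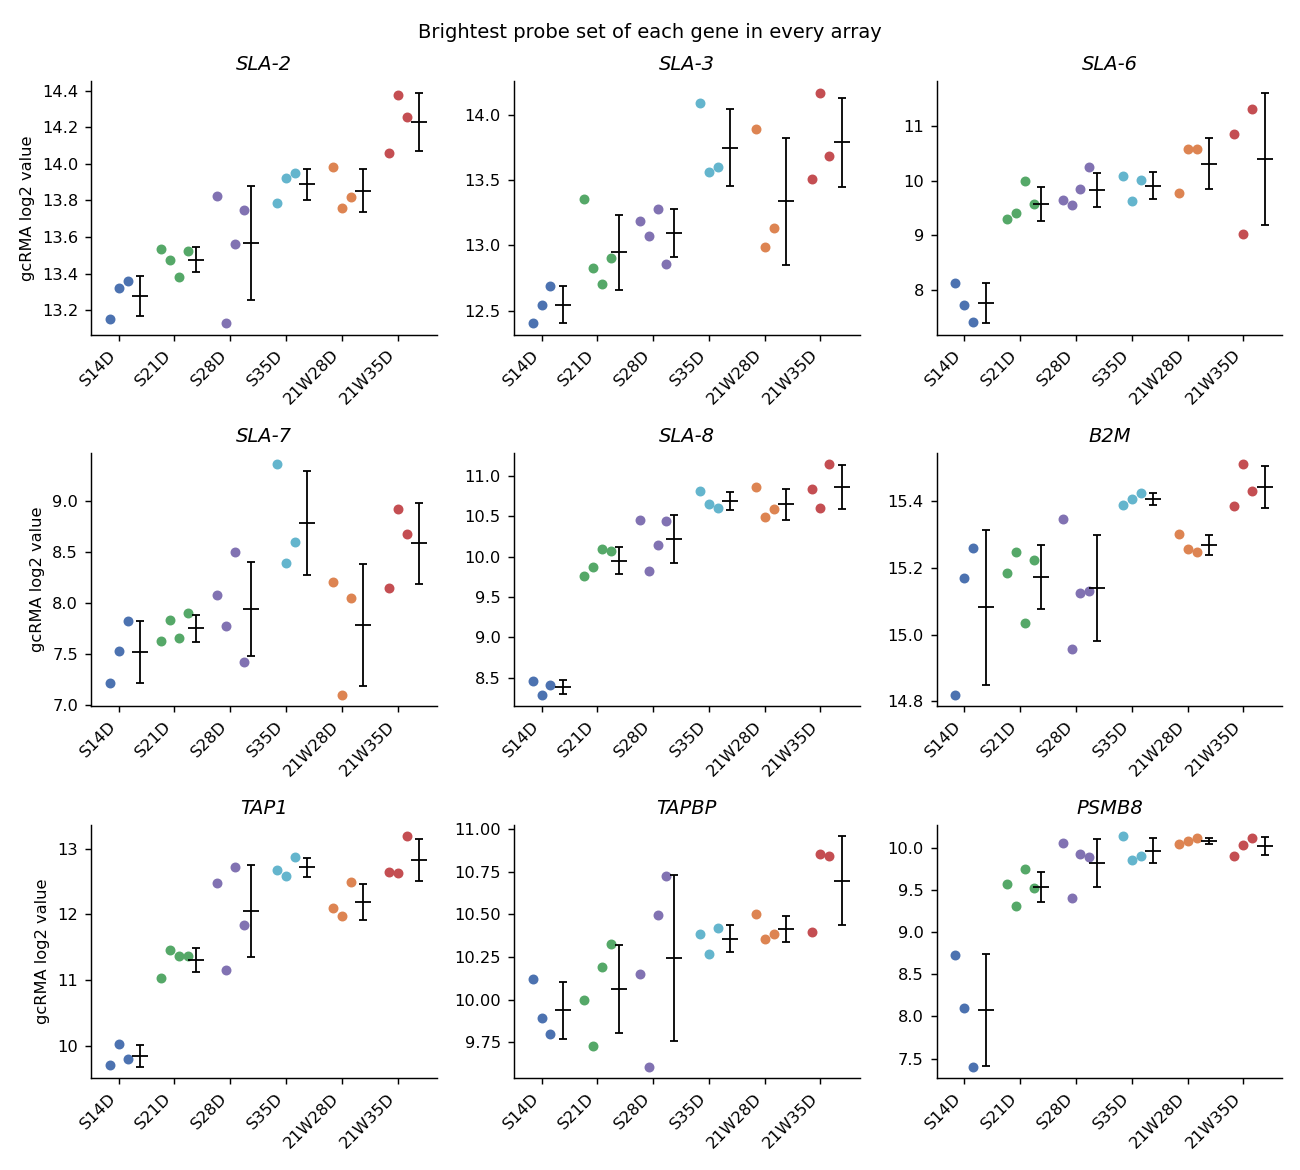
gcRMA log2 value (vertical axis, own scale in each panel) of the brightest probe set of each gene in every array, by group. Points are arrays and the bar to their right is the group mean with its SD (n = 3 or 4). The S14D arrays lie below all others for TAP1, SLA-8, SLA-6 and PSMB8, and for SLA-2 the 21W35D arrays lie above all others.

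From S14D to S21D, which follows suckling piglets up to the age of weaning, the transporter subunit TAP1, the immunoproteasome subunit PSMB8 and the non-classical heavy chains SLA-6 and SLA-8 rose by 2.75- to 3.53-fold. With limma's moderated test, adjusted over all probe sets, 5 of 21 probe sets were higher at S21D and 1 was lower, where 7.27% of all probe sets were called higher and 7.63% lower. TAP1 was 1.46 ± 0.29 log2 units higher (SE; limma adjusted p = 0.0052) and PSMB8 was 1.46 ± 0.23 higher (limma adjusted p = 0.00115). SLA-6 was 1.82 ± 0.42 higher (limma adjusted p = 0.0126). The 2 probe sets of SLA-8 were 1.57 ± 0.16 and 1.47 ± 0.19 higher (limma adjusted p = 3.04e-05 and 2.5e-04). For all of these the S14D and S21D arrays did not overlap. In 8 of 21 probe sets every S21D array lay above every S14D array, against 14.1% of all probe sets. The classical heavy chains SLA-2 and SLA-3 differed by 0.20 and 0.40, SLA-7 by 0.23, TAPBP by 0.12 and the brightest probe set of B2M by 0.09, and none passed (limma adjusted p = 0.273 to 0.952). The median over the 9 genes was 0.40, and that over all probe sets was 0.

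SLA-8 and TAP1 passed this comparison in every alternative run. SLA-6 missed the threshold without S14D replicate 3 (limma adjusted p = 0.0746), and PSMB8 missed it with only S14D and S21D in the fit (limma adjusted p = 0.0508) and in the methods' test with Benjamini-Hochberg adjustment over all probe sets (adjusted p = 0.0524). Leukocyte markers moved in the same direction: 5 of the 9 T and NK cell markers measured were called higher at S21D, as were 3 of 5 pan-leukocyte and 2 of 3 B cell markers, and none of these was called lower. The mean log2 score of T and NK cell markers, centred on all arrays, ran from -2.28 to -1.13 in S14D and from -0.62 to 0.30 in S21D. The pan-leukocyte score ran from -2.89 to -0.04 in S14D and from 0.39 to 0.73 in S21D. The part of these cells in the rise of the class I genes was not tested.

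From S21D to S28D, limma called 0 of 21 probe sets, where 0.00417% of all probe sets were called. At an unadjusted p under 0.05 there were 2 of 21, against 1.62% of all. Of the 9 genes, TAP1 differed most, by 0.74 ± 0.27 (SE), and its arrays overlapped. From S28D to the arrays labelled S35D, 0 of 21 were called, against 6.54% of all probe sets. At an unadjusted p under 0.05 there were 8 of 21, against 23.3% of all. The differences there lay between 0.09 for SLA-6 and 0.84 for SLA-7, and all 9 were above 0. Without S28D replicate 1, 1 member was called.

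Over the longer span from S21D to the arrays labelled S35D, TAP1 and SLA-8 rose further, by 2.66- and 1.67-fold. They were 2 of 21 probe sets called by limma, both higher, where 2.25% of all probe sets were called higher. TAP1 was 1.41 ± 0.29 log2 units higher (SE; limma adjusted p = 0.0203) and SLA-8 was 0.74 ± 0.16 higher by its brighter probe set (limma adjusted p = 0.0249). The dimmer SLA-8 probe set was not called. SLA-7 differed by 1.03 ± 0.31, SLA-3 by 0.80 ± 0.23 and SLA-2 by 0.41 ± 0.13, with no overlap between the groups, and did not pass (limma adjusted p = 0.0656 to 0.095). SLA-6 and PSMB8, which had risen before day 21, differed by 0.34 ± 0.42 and 0.43 ± 0.23. In 9 of 21 probe sets every array labelled S35D lay above every S21D array, against 9.85% of all probe sets. The count of 2 became 0 with both doubted labels exchanged, 0 without S21D replicates 1 or 4 or S35D replicates 1 or 3, and 1 without S21D replicate 3.

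Across the 4 suckling ages, limma's F test called 11 of 21 probe sets, where 20.6% of all were called. They belonged to 8 of the 9 genes, TAPBP being the exception (limma adjusted p = 0.513). By the brightest probe set 7 of the 9 genes were called, since B2M was called only by dimmer probe sets. By the brightest probe set, the spread between the highest and lowest age means was 2.87 log2 units for TAP1, 2.30 for SLA-8, 2.16 for SLA-6 and 1.89 for PSMB8. It was 1.27 for SLA-7, 1.21 for SLA-3 and 0.61 for SLA-2. The count was 7 with the labels exchanged or without S14D replicate 2, S14D replicate 3 or S35D replicate 1, and 6 without the arrays labelled S35D and 21W28D.

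After weaning, the question is whether the class I genes moved beyond what suckling piglets of the same age showed. At 14 days after weaning TAP1, SLA-8 and the classical heavy chain SLA-2 were higher than at the age of weaning, by 2.86-, 1.88- and 1.69-fold. Limma called these 3 of 21 probe sets from S21D to 21W35D, all higher, where 0.263% of all probe sets were called higher. TAP1 was 1.52 ± 0.29 log2 units higher (SE; limma adjusted p = 0.0415). SLA-8 was 0.91 ± 0.16 higher by its brighter probe set and SLA-2 was 0.75 ± 0.13 higher (limma adjusted p = 0.033 for both). The dimmer SLA-8 probe set was not called. In 11 of 21 probe sets all 21W35D arrays lay above all S21D arrays, against 5.12% of all probe sets. The other 6 genes differed by 0.27 for B2M to 0.84 for SLA-3 and did not pass (limma adjusted p = 0.174 to 0.46). The count of 3 fell to 0 without any 1 of the 4 S21D arrays or 21W35D replicate 3, without the arrays labelled S35D and 21W28D, and with only both groups in the fit. It was 1 without 21W35D replicate 1, 2 without replicate 2 and 1 with the replicate number as a block. In the same comparison the median difference of the 9 T and NK cell markers was 1.67 with 1 called higher, that of 3 B cell markers was -1.50 and that of 5 pan-leukocyte markers was -0.62, with 0 called. Their part in the rise of the 3 genes was not tested.

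Against suckling piglets of the same age, no class I gene passed. From S28D to the arrays labelled 21W28D, limma called 0 of 21 and 0% of all probe sets, with 3 of 21 and 1.88% of all at an unadjusted p under 0.05. From S35D to 21W35D it called 0 of 21 and 0.0458% of all probe sets, with 1 of 21 and 5.86% of all at an unadjusted p under 0.05. TAP1 differed by 0.14 at day 28 (95% interval -0.47 to 0.75) and by 0.11 at day 35 (-0.55 to 0.76). SLA-8 differed by 0.43 (0.09 to 0.77) and 0.18 (-0.18 to 0.54), and SLA-2 by 0.29 (0.01 to 0.57) and 0.34 (0.04 to 0.64). All of these rest on the doubted labels. With both labels exchanged, TAP1 differed by 0.67 at day 28 (95% interval 0.06 to 1.28) and by 0.64 at day 35 (-0.02 to 1.29), and again 0 of 21 probe sets were called on either day. No member was called for a change of its weaned minus suckling difference between the days (limma interaction, 0 of 21 and 0% of all probe sets called, with 0 of 21 and 2.54% of all at an unadjusted p under 0.05).

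From S21D to the arrays labelled 21W28D limma also called 0 of 21 and 0% of all probe sets, with 6 of 21 and 2.53% of all at an unadjusted p under 0.05. TAP1 differed by 0.88 ± 0.29 and SLA-8 by 0.70 ± 0.16 (SE). In 7 of 21 probe sets the arrays labelled 21W28D all lay above S21D, against 1.68% of all probe sets. With the doubted labels exchanged, 2 members were called. From 21W28D to 21W35D limma called 0 of 21 and 0.0792% of all probe sets, with 3 of 21 and 8.86% of all at an unadjusted p under 0.05. SLA-7 differed most there, by 0.80 ± 0.34, and TAP1 by 0.64 ± 0.31. The F test over S21D, S28D, S35D, 21W28D and 21W35D called 3 of 21, again TAP1, SLA-8 and SLA-2, where 2.22% of all were called. That count was 0 without S21D replicates 1 or 2 or S35D replicate 1, 1 without S21D replicates 3 or 4, S35D replicate 3 or 21W35D replicate 3, and 0 without the arrays labelled S35D and 21W28D. All comparisons that start from S21D share its 4 arrays.

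**Figure D2:**
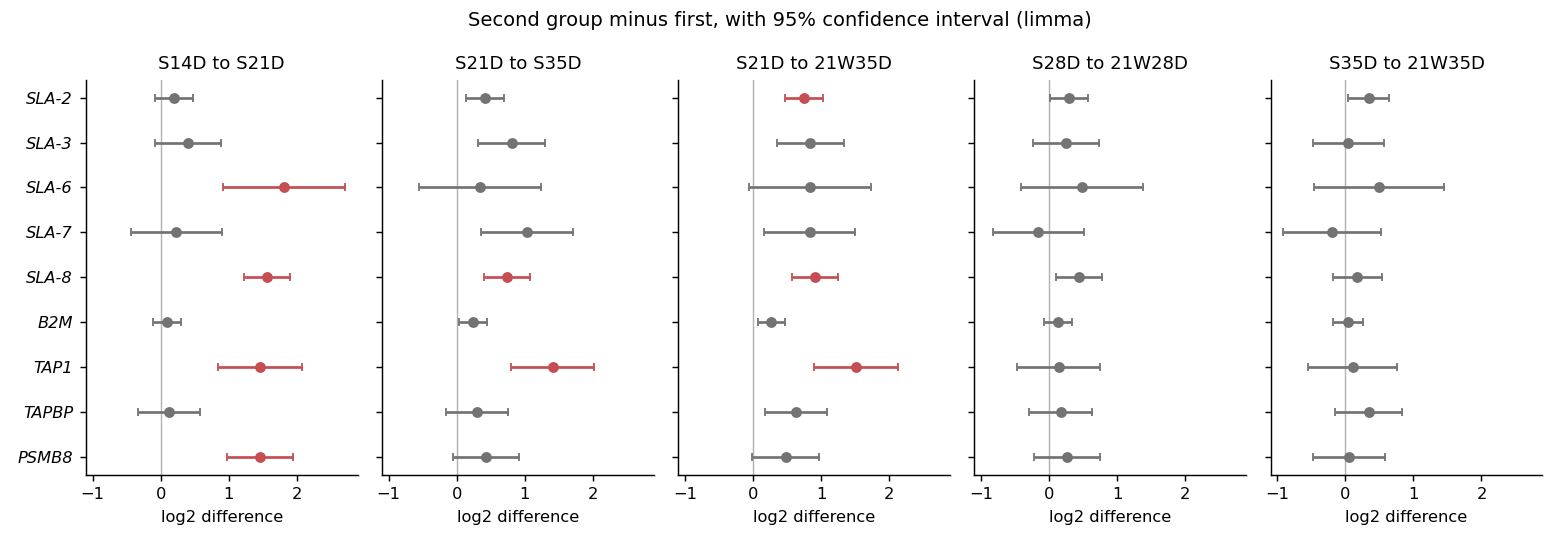
Difference of the second group from the first (horizontal axis, log2 units) for the brightest probe set of each gene in 5 comparisons, with the 95% confidence interval from limma. Red marks adjusted p under 0.05. The 4 rises from S14D to S21D include SLA-6 and PSMB8, whose later intervals include 0, while no gene is marked in the panels of weaned against suckling piglets of the same age.

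The 9 genes were positively correlated across the 20 arrays in all 36 pairs, which shared the group differences. In 11 pairs r was above 0.8, led by SLA-8 with TAP1 at 0.94 and SLA-8 with PSMB8 at 0.93. With each group's mean taken out, 27 of the 36 pairs remained above 0 and none above 0.8. B2M with SLA-2, the light chain and a classical heavy chain, then had r = 0.74, and the lowest was SLA-3 with SLA-6 at r = -0.65.

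Beside marker and interferon scores the genes separated once the group means were taken out. SLA-6 followed the T and NK cell score at r = 0.95 over the 20 arrays and at 0.82 with the group means taken out. With the group means taken out it also followed the myeloid score at 0.80 and the B cell score at 0.71. In 21W35D the T and NK cell score was 1.50, 0.07 and 1.50, and replicate 2 was also the array with the low SLA-6 value. That array was the lowest of its group in the B cell, pan-leukocyte and myeloid scores too, at -3.51, -1.44 and -0.99. SLA-3 ran against the T and NK cell score within groups, at r = -0.79, and TAP1 did not follow it there, at r = 0.02. Over the 20 arrays SLA-3 and TAP1 followed that score at 0.43 and 0.78. By the brightest probe sets, all genes lay between 0.20 for SLA-7 and 0.95 for SLA-6. With the epithelial score the within-group r was 0.58 for SLA-3 and -0.54 for SLA-6. TAP1 followed the score of 17 genes of the type 1 interferon response at 0.85, and at 0.74 with the group means taken out. For SLA-8 the same score gave 0.72 and 0.19. Among the brightest probe sets of all genes, it gave 0.57 for SLA-6 to 0.85 for TAP1 over the 20 arrays. With the group means taken out, it gave 0.04 for SLA-3 to 0.74 for TAP1. These values describe 20 arrays of 6 groups and share each array's tissue composition.

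**Figure D3:**
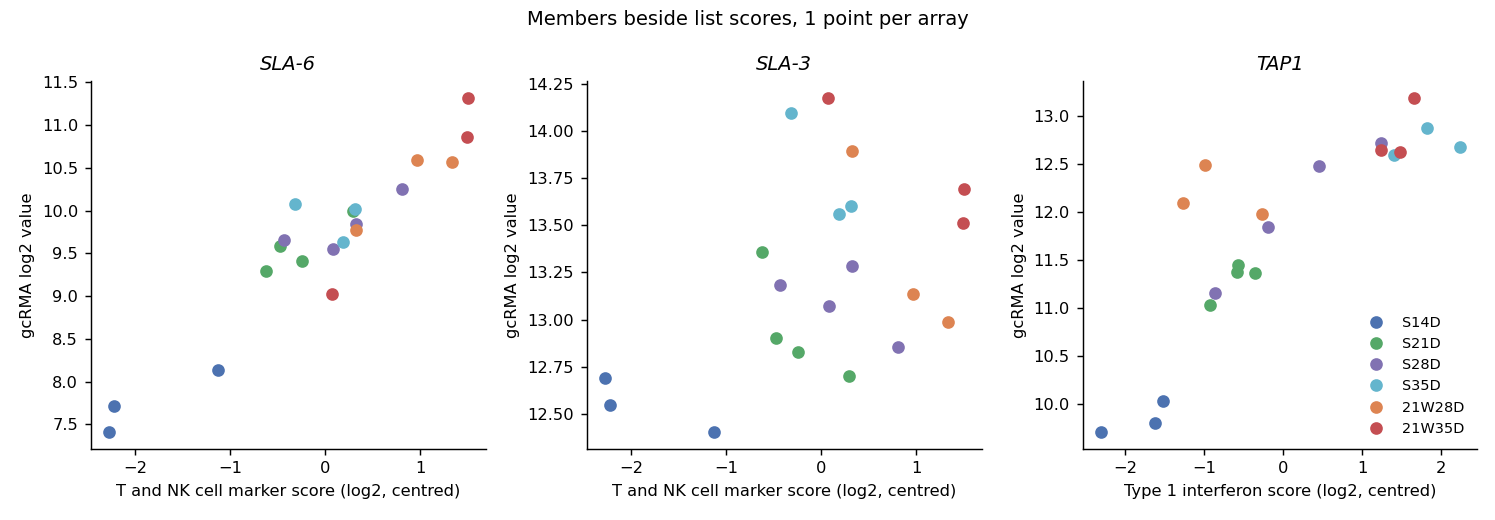
gcRMA log2 value of SLA-6 and SLA-3 against the T and NK cell marker score, and of TAP1 against the type 1 interferon score (horizontal axes, mean log2 value of the list centred on all arrays), 1 point per array coloured by group. SLA-6 rises with the marker score across and within groups, SLA-3 does not within groups, and S28D arrays of TAP1 line up along the interferon score.

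By the rule of highest correlation among 6073 other probe sets with 1 symbol and a mean of at least 5, the patterns most like that of TAP1 were NUB1 (r = 0.95), GBP1 (0.93), PPA1 (0.93), RNF19B (0.92) and GBP2 (0.92). GBP1 and GBP2 encode interferon-inducible guanylate-binding proteins. Those most like the brightest B2M probe set were GZMH, a granzyme of cytotoxic lymphocytes (0.91), ASB13, ETV6, LOC100513601 and TFF2 (0.82). For SLA-2 they were ETV6 (0.92), GZMH, LOC100513601, GBP2 and PSME1, a subunit of the proteasome activator that interferon induces (0.87). LOC100513601 lies next to SLA-2 in the gene table. Its probe set carries the same suffix for probes that can match other transcripts, so that the 2 signals may be partly shared.

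The 9 probe sets annotated to B2M did not agree. In order of their mean, the brightest and the third followed each other at r = 0.94, while the brightest correlated at -0.53 with the sixth and at -0.36 with the second. The eighth was the 1 member called lower from S14D to S21D. It was 8.82, 8.78 and 9.25 in S14D and 8.18, 8.39, 8.35 and 8.26 in S21D, a difference of -0.65 ± 0.14 (SE; limma adjusted p = 0.0071). In the later groups this B2M probe set ran from 8.10 to 8.78, overlapping both. Without S14D replicate 3 it missed the threshold (limma adjusted p = 0.0504).

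The sixth B2M probe set in brightness had the widest range of the 9, 6.68 log2 units. It was 14.84, 13.36 and 10.30 in S14D, 12.41, 10.84, 10.80 and 10.95 in S21D, 10.51, 8.21, 9.59 and 10.17 in S28D, and 9.21, 8.74 and 8.16 in the arrays labelled S35D. The weaned piglets read 10.35, 9.08 and 9.94 in those labelled 21W28D and 9.39, 9.27 and 10.45 in 21W35D. Limma's F test over the suckling ages called it (adjusted p = 0.0176) and no pairwise comparison did. Its 3 highest arrays, S14D replicates 1 and 2 and S21D replicate 1, were the 3 arrays whose red cell score was above 0, at 3.54, 0.91 and 0.36. The red cell list held 3 usable genes of 6, and its part in this signal was not tested. Since the B2M probe sets disagree in direction, the B2M values above are those of the brightest one and are not a value for the gene as a whole.

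**Figure D4:**
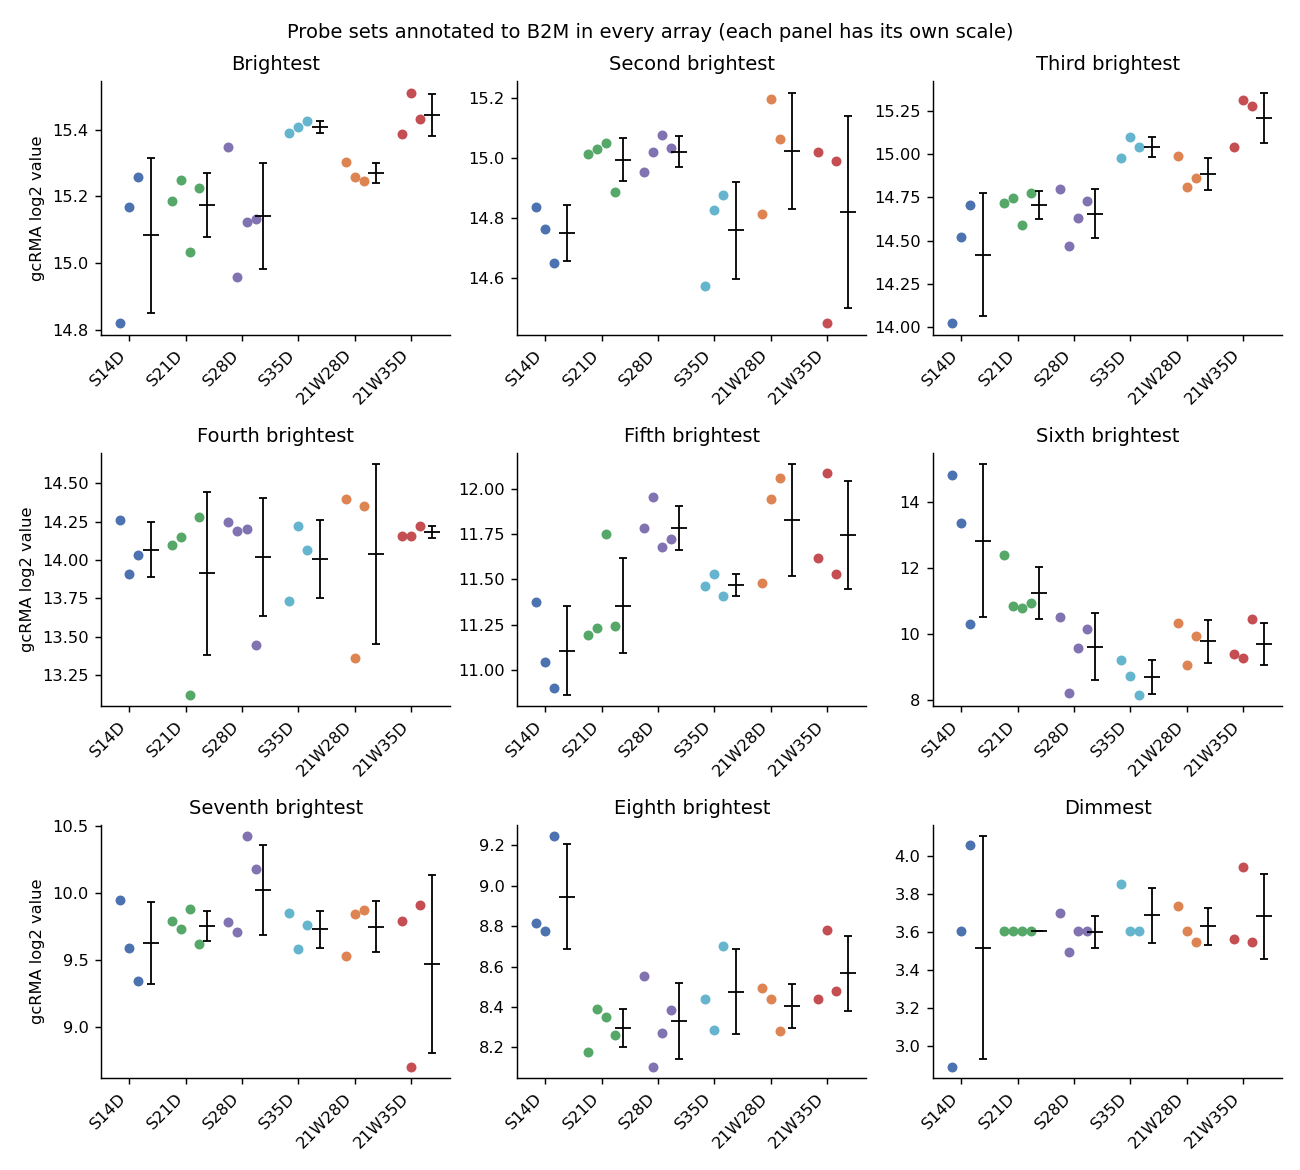
gcRMA log2 value (vertical axis, own scale in each panel) of the 9 probe sets annotated to B2M in every array, by group, with group mean and SD (n = 3 or 4). Panels run from the brightest to the dimmest by mean. The brightest and the third are highest in the day 35 groups, and the sixth is highest in S14D, where its arrays spread from 10.30 to 14.84.

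Other genes of the pathway were followed in lists of known partners, which were chosen with earlier results of these data known. Of 12 loading partners, 8 were measured, and from S14D to S21D the chaperone CANX fell by 0.58 ± 0.15 (SE; limma adjusted p = 0.0194) while the disulfide isomerase PDIA6 rose by 0.68 ± 0.16 (limma adjusted p = 0.0154). CALR and PDIA3, calreticulin and ERp57 of the loading complex, were not called in any pairwise comparison. Of the immunoproteasome partners PSMB10, PSME1 and PSME2, only PSME2, the other subunit of the interferon-induced activator, passed, rising by 0.98 ± 0.22 from S21D to the arrays labelled S35D (limma adjusted p = 0.032). From S14D to S21D 0 of these 3 passed by limma, and 0 at an unadjusted p under 0.05. All 15 proteasome core and constitutive subunits were measured, and 6 rose from S14D to S21D, by 0.28 to 0.50. From S21D to the arrays labelled S35D 4 of them rose, with PSMA5 at 1.18 ± 0.17 and PSMB5, the counterpart of PSMB8, at 0.53 ± 0.12 (limma adjusted p = 0.00503 and 0.0294). With the doubted labels exchanged, 0 of the loading, immunoproteasome and core lists were called from S21D to S35D.

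Of 26 regulators of these genes, 20 were measured. IRF8, a transcription factor of myeloid and B cells, rose by 2.51 ± 0.54 from S14D to S21D (SE; limma adjusted p = 0.0086), with IRF2 at 0.45 ± 0.11. IRF7, which drives type 1 interferon production, rose by 2.83 ± 0.42 from S21D to the arrays labelled S35D and by 2.32 ± 0.42 from S21D to 21W35D (limma adjusted p = 0.00593 and 0.0362). The interferon gamma receptor chain IFNGR1 rose by 0.88 ± 0.18 from S21D to the arrays labelled S35D, and the kinase TYK2 fell by 0.50 ± 0.11 (limma adjusted p = 0.0213 and 0.0307). With the doubted labels exchanged, 0 of 20 regulators were called from S21D to S35D. IRF1, which acts at class I promoters, was 11.40 ± 0.25 in S14D and 11.13 ± 0.29 in S21D (SD, n = 3 and 4) and was not called in any pairwise comparison.

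Of 29 type 1 interferon response genes, 17 were measured. From S14D to S21D 7 rose, among them XAF1 by 3.28 ± 0.60 and IFIT1 by 2.34 ± 0.45 (limma adjusted p = 0.00346 and 0.00436). From S21D to the arrays labelled S35D 14 of 17 rose, against 2.25% of all probe sets, with RSAD2 at 3.96 ± 0.51 (limma adjusted p = 0.00247). With the doubted labels exchanged, 0 of 17 were called from S21D to S35D and their median difference was -0.49 in place of 2.46. From S21D to 21W35D 2 rose. Their score ran from -2.31 to -1.52 in S14D, -0.93 to -0.36 in S21D, -0.86 to 1.24 in S28D, 1.41 to 2.23 in the arrays labelled S35D, -1.27 to -0.27 in those labelled 21W28D and 1.23 to 1.65 in 21W35D. The TAP1 values of the arrays labelled 21W28D, 11.98 to 12.49, lay above every S21D array, and the interferon scores of these groups overlapped. The part of interferon in the TAP1 values was not tested. With both labels exchanged the score's order between S35D and 21W28D is exchanged too.

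Receptors that read class I or class I-like molecules were partly measured, 3 of 10. CD8A, the co-receptor chain of cytotoxic T cells, rose by 2.11 ± 0.53 from S14D to S21D (SE; limma adjusted p = 0.019). KLRK1, the activating NK cell receptor NKG2D, was 7.26 ± 0.32 in S21D and 9.50 ± 0.19 in 21W35D (SD, n = 4 and 3), a rise of 2.24 ± 0.32 (SE; limma adjusted p = 0.0084). Of 12 class I-like molecules, 5 were measured. The neonatal Fc receptor chain FCGRT fell by 0.75 ± 0.21 from S14D to S21D and differed by 0.77 ± 0.21 from S28D to the arrays labelled S35D, being higher in the latter (limma adjusted p = 0.0307 and 0.0458). With the doubted labels exchanged, FCGRT was not called from S28D to S35D. CD1.1, a lipid-presenting molecule, rose by 4.04 ± 1.21 from S14D to S21D (limma adjusted p = 0.0378). CD1.1 then differed by -4.03 from S21D and by -4.14 from S28D to the arrays labelled S35D, which rest on the doubted labels. From S21D to 21W35D it differed by -3.04. It was not called in any of these later comparisons.

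Probe sets that carried SLA-1 or more than 1 SLA symbol fell outside the rule, and they are described because SLA-1 had 0 probe sets with 1 symbol. The probe set annotated to SLA-2 and SLA-3 ran from 13.38 in S14D replicate 1 to 15.06 in 21W35D replicate 3. The probe set annotated to LOC100513601, SLA-2 and SLA-1 ran from 12.82 to 14.47 between the same arrays. Both thus had the ends of their range in the same groups as TAP1.

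The probe set annotated to LOC100513601 and SLA-1 took values of 2 kinds. It was 6.52, 8.94 and 8.31 in S14D, 2.08, 2.27, 2.23 and 2.23 in S21D, 9.01, 2.10, 9.11 and 9.55 in S28D, and 2.26, 2.66 and 10.64 in the arrays labelled S35D. It was 2.23, 2.32 and 9.60 in the arrays labelled 21W28D and 9.73, 2.26 and 10.95 in 21W35D. In 10 of 20 arrays it was thus above 5 and in the other 10 within 1 of the floor, in both states within 4 of the 6 groups. No group difference was tested for it.

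**Figure D5:**
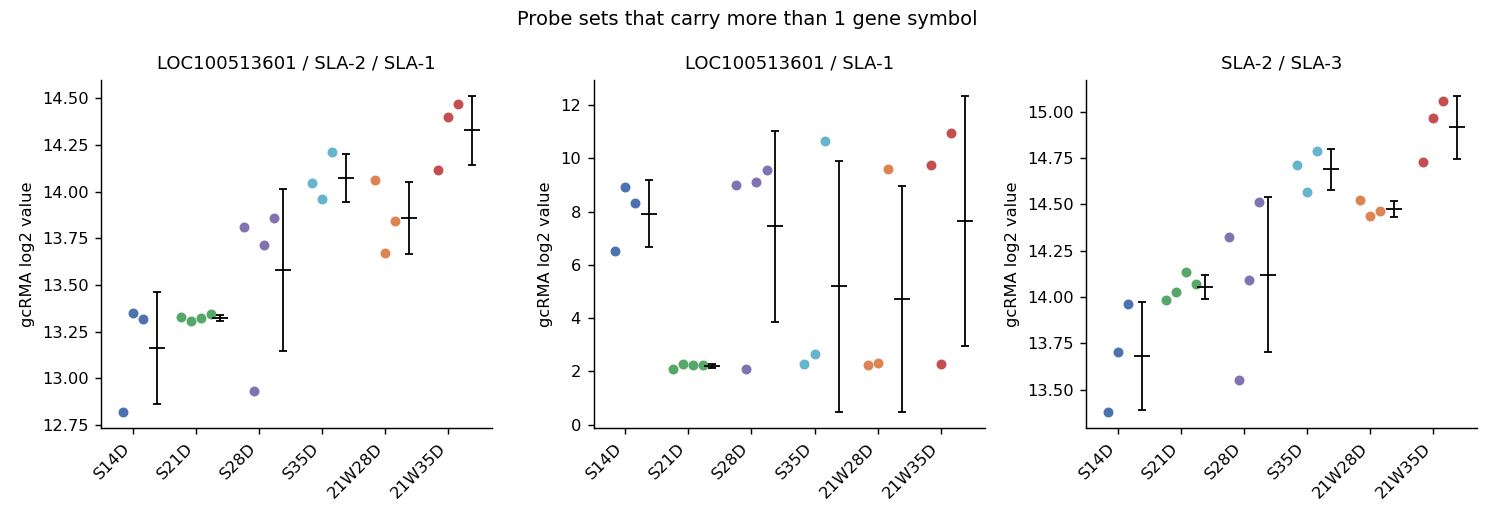
gcRMA log2 value (vertical axis, own scale in each panel) of 3 probe sets annotated to more than 1 gene, by group, with group mean and SD (n = 3 or 4). The probe set of LOC100513601 and SLA-1 is either near the floor or above 5 within S28D, S35D, 21W28D and 21W35D, and the other 2 are far above the floor in all 20 arrays.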

How the data were processed

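Ileal mucosa of 20 piglets was measured on 1-colour Affymetrix GeneChip Porcine Genome arrays. The authors deposited log2 values made by gcRMA, with GCOS 1.2 and GCRMA as the tools listed in their processing notes. The genome build was not given in the sources used here. Gene symbols came from the platform annotation, and 124 of 24123 probe sets, which were Affymetrix controls, were left out. The Entrez identifiers of the 9 genes were found in the RefSeq table of Sscrofa11.1, as were those of 9961 of 10069 probe sets with 1 symbol. No sequence was used here.

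Differences between groups were computed with limma 3.58.1 in R 4.3.3 (lmFit and eBayes) on the deposited log2 values of all 23999 probe sets in all 20 arrays, with 1 mean per group. P-values were adjusted by the Benjamini-Hochberg method over all probe sets and called at 0.05. The moderated tests were checked on simulated data. In all, 9 pairwise comparisons, 2 F tests and 1 interaction were run. The piglets came from fewer sows than there were piglets, and which shared a litter is not known, so p-values treat as independent some that may be littermates, and the number of arrays limits the precision.

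Values in every array are given for the probe set with the highest mean of each gene and for any other member called in a pairwise comparison. Probe sets are named by gene and order of brightness. The sixth B2M probe set and the probe sets with several gene symbols were named after their values were seen. List genes were named from those called, up to 4 per list and comparison, and CALR, PDIA3 and IRF1 were added for their roles. A list score is the mean over its genes that reached 4 in some array, each centred on its mean over the arrays. The members and lists were chosen with earlier results of these data known. Tables and figures were made with Python 3.11.15, numpy 2.4.6, pandas 2.3.3 and matplotlib 3.10.9.

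Alternatives were the methods' t-test, only the groups compared, a filter for dim probe sets, the brightest probe set per gene, an intensity trend, median centring, quantile normalization, a fold minimum, the replicate number as a block, each array left out, and an exchange of the labels S35D and 21W28D. Leaving out the arrays with these labels was added after seeing the data.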

Additional observations from a re-analysis of the deposited data

Results flagged for a closer look

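Among 42 groups of 4 arrays with a measurable range, 7 had an array apart from the other 3 by Dixon's test at 95%, where chance gives about 1 in 20. The fourth B2M probe set in brightness was 13.12 in S21D replicate 3, against 14.10 to 14.28 in the others, and 13.44 in S28D replicate 4, against 14.19 to 14.25. In the same S21D replicate 3, the fifth was 11.75, against 11.19 to 11.24. The sixth was 12.41 in S21D replicate 1, against 10.80 to 10.95. A dim TAP1 probe set was 2.14 in S21D replicate 2, against 2.09, which is at the floor.

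S28D replicate 2 was apart in 2 probe sets with several gene symbols: that of LOC100513601, SLA-2 and SLA-1 was 12.93 against 13.71 to 13.86, and that of LOC100513601 and SLA-1 was 2.10 against 9.01 to 9.55. The same array had the lowest TAP1, SLA-2 and TAPBP values of its group. The probe set of LOC100513601 and SLA-1, which enters no comparison, was above 5 in 10 of 20 arrays.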

How the results depend on the processing

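No call of a member in a pairwise comparison changed direction under any alternative. Directions of members not called and of single list genes were not scored. The median of the type 1 interferon list from S21D to S35D did change direction, from 2.46 to -0.49 with the labels exchanged. From S14D to S21D the count of called members was 5 to 6 over all arrays left out. With a 2-fold minimum as well, 1 member was called from S21D to S35D, 1 from S21D to 21W35D and 1 over weaning. With the methods' t-test at an unadjusted threshold and 2-fold, 1 was called from S21D to S28D, 1 from S21D to 21W28D and 10 over weaning; with Benjamini-Hochberg adjustment it called 1 from S21D to S35D and 0 from S21D to 21W35D. With only the groups compared in the fit, 0 were called from S21D to 21W35D. From S21D to S35D 5 were called with dim probe sets left out, where fewer probe sets enter the adjustment, and 4 after median centring, which moved the median of all probe sets by -0.05 to 0.08. The brightest probe set per gene gave 7 over age, where 9 members were fitted. After exchanging the labels S35D and 21W28D, 0 were called from S21D to S35D, 2 from S21D to 21W28D and 7 over age. With these arrays left out, 0 were called from S21D to 21W35D, 6 over age and 0 over weaning. Leaving out 1 array at a time gave 0 to 2 from S21D to S35D, 0 to 2 from S21D to 21W35D, 0 to 1 from S28D to S35D, 7 to 11 over age and 0 to 4 over weaning, and 0 in the other comparisons. Apart from the causes named, the cause was not tested.

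The replicate numbers did not pair the arrays: over 46 pairs with the same number the median correlation of deviations was 0.033, and 6 of 20 arrays correlated best with their own number. With the replicate block, 1 member was called from S21D to 21W35D and 1 over weaning, and no other count moved by over 1.5 times. The interaction was not run with the methods' t-test. Values near the floor limit what can be measured, and whether the top of the scale does was not tested.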
